A study of Homo sapiens with 7 samples.

Results

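The 8 genes described here encode ATP-binding cassette (ABC) transporters that carry drugs out of cells: ABCG2, ABCB1, ABCC1, ABCC2, ABCC3, ABCC4, ABCC5 and ABCC10. They are listed by name as pumps known to carry tyrosine kinase inhibitors or other anticancer drugs. The list uses no measured value but was drawn up with earlier results of these data known. All 8 were found among the 25702 genes of the count table. Their RNA was measured in 7 lines of K562, an established line from chronic myeloid leukemia in blast crisis, driven by the BCR::ABL1 kinase, with 1 sequencing library for each line. The control lines were drug naive K562 and K562 kept in the DMSO vehicle. The other 5 lines were dasatinib-resistant (DasR) intermediates of a single dose escalation, grown long term in 10, 15, 25, 50 or 200 nM dasatinib, an inhibitor of BCR::ABL1. The 10, 15 and 25 nM lines formed the early stage group and the 50 and 200 nM lines the late stage group. The study drew these groups from a clustering of the same libraries. Lines of a group served as replicates although they differed in dose and descended from each other, so the spread within a group holds both line and dose, and no line was sequenced more than once. The libraries held 20059656 to 27844799 counts.

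ABC transporters spend ATP to move substrates across membranes. ABCB1 and ABCG2 export a broad range of drugs, including several kinase inhibitors, and limit drug entry at the gut, the blood-brain barrier and in stem cells. The ABCC pumps favor organic anions, conjugates and nucleotides, and solute carriers (SLC and SLCO genes) bring many of the same drugs into cells.

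Positions are given on GRCh37, the build of hg19. ABCG2 (gene ID 9429) lies at chr4:89011302-89152780 on the minus strand, and ABCB1 (5243) at chr7:87132333-87342639, also on the minus strand. ABCC1 (4363) lies at chr16:16042995-16237114, ABCC2 (1244) at chr10:101542397-101612351 and ABCC3 (8714) at chr17:48712138-48769614, all on the plus strand. ABCC4 (10257) lies at chr13:95672089-95953729 and ABCC5 (10057) at chr3:183637722-183735727 on the minus strand, and ABCC10 (89845) at chr6:43395104-43418165 on the plus strand. ABCB1 shares 85776 bases with RUNDC3B on the opposite strand and ABCC10 shares 76 bases with DLK2. The library kit was directional, so the reads carry strand, but whether the counting used it was not given in the sources used here, and reads of the overlapping genes cannot be told apart.

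The sequences before the annotated starts are shown for the member with the widest range over the lines (ABCG2) and for the members whose levels ran most strongly against it (ABCB1 and ABCC1). Each is 250 bases before the canonical transcript, 5' to 3' on the gene's strand, moved outward until no annotated exon of the gene lay within it. Capitals mark matches on either strand to the GC box with the letters GGGCGG, the CAAT box spelled CCAAT, the TATA box spelled TATAAA, the aryl hydrocarbon receptor core GCGTG, the antioxidant response core TGACNNNGC or the hypoxia response core ACGTG. The windows are chr4:89080476-89080725 (ABCG2, minus strand), chr7:87230395-87230644 (ABCB1, minus strand) and chr16:16043184-16043433 (ABCC1, plus strand).
ABCG2: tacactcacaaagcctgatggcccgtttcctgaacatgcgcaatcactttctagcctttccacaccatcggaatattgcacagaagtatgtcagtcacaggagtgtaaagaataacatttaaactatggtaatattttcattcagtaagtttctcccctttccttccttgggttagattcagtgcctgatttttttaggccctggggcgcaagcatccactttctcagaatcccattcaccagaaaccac
ABCB1: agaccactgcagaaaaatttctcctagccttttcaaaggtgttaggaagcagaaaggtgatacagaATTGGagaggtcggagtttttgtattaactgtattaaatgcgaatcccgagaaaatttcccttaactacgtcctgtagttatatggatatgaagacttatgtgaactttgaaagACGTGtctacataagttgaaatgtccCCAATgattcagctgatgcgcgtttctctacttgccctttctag
ABCC1: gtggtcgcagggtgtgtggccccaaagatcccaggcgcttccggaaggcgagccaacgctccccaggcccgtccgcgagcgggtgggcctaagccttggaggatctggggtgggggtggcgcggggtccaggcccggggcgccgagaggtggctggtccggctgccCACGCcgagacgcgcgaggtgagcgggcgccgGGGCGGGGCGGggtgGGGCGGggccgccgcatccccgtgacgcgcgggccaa
The ABCG2 window, 684 bases farther out than the canonical start, held no match and 43.2% G or C. The ABCB1 window, moved out by 194 bases, held 2 CAAT boxes and 1 hypoxia core in 39.2% G or C. The ABCC1 window, moved out by 39 bases, held 3 GC boxes, a pair of which overlap by 1 base. It also held 1 aryl hydrocarbon receptor core, in 77.6% G or C. Among 18693 windows of protein-coding genes made the same way, 55.0% held a GC box, 33.8% a CAAT box, 9.46% a TATA box, 39.2% the aryl hydrocarbon receptor core, 10.9% the antioxidant core and 20% the hypoxia core, with a median of 61.6% G or C. The bases skipped beside each canonical start were not searched. The windows of ABCG2, ABCB1 and ABCC1 each lie within the annotated span of their gene, so they do not describe whole promoters. A match describes letters only, and counts per gene do not say which start the lines used.

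ABCG2 was the member that differed most between lines. Its level was 3.57 CPM (counts scaled to one library total) in drug naive cells, 0.582 in the DMSO line, 512 in the 10 nM line, 3122 in the 15 nM line, 3089 in the 25 nM line, 199 in the 50 nM line and 2.41 in the 200 nM line. All early stage lines stood above both controls. The 50 nM line lay between the early lines and the controls, and the 200 nM value stood between those of the controls. The CPM rested on 75 and 14 counts in the controls and on 86928 at its highest. The 15 nM line held 6.10 times the level of the 10 nM line (95% counting interval 5.99 to 6.21), and the 15 and 25 nM lines differed by a ratio of 0.990 (0.979 to 0.9999). From the 50 to the 200 nM line the level differed by 82.7 times (62.9 to 111). Such intervals cover counting error only. The drug naive line itself held 6.13 times the level of the DMSO line (3.44 to 11.7).

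The mean of ABCG2 was 2241 ± 1498 CPM in the early stage lines (SD, n = 3), 100.8 ± 139 in the late stage lines (n = 2) and 2.08 ± 2.11 in the controls (n = 2). The log2 fold change of early stage against control was 10.08 (SE 2.25), with an adjusted p of 0.00993 in edgeR (quasi-likelihood F test, Benjamini-Hochberg adjusted), which missed the call threshold of 0.005. The value crossed the threshold in other fits: the adjusted p was 3.49e-08 with DESeq2, 0.00161 when edgeR fitted only these groups and 0.00256 without a filter on low counts, but 0.214 with limma-voom. Against control, the late stage log2 fold change was 5.61 (SE 1.96, edgeR adjusted p = 0.0623). That late stage value rested on the 50 nM line, since it was 0.22 (edgeR adjusted p = 0.930) without it. Both comparisons share their control libraries. The late against early log2 difference was −4.47 (SE 1.67, edgeR adjusted p = 0.116), and it was −9.87 without the 50 nM line (edgeR adjusted p = 0.0156) and −3.49 without the 200 nM line (edgeR adjusted p = 0.203).

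**Figure D1:**
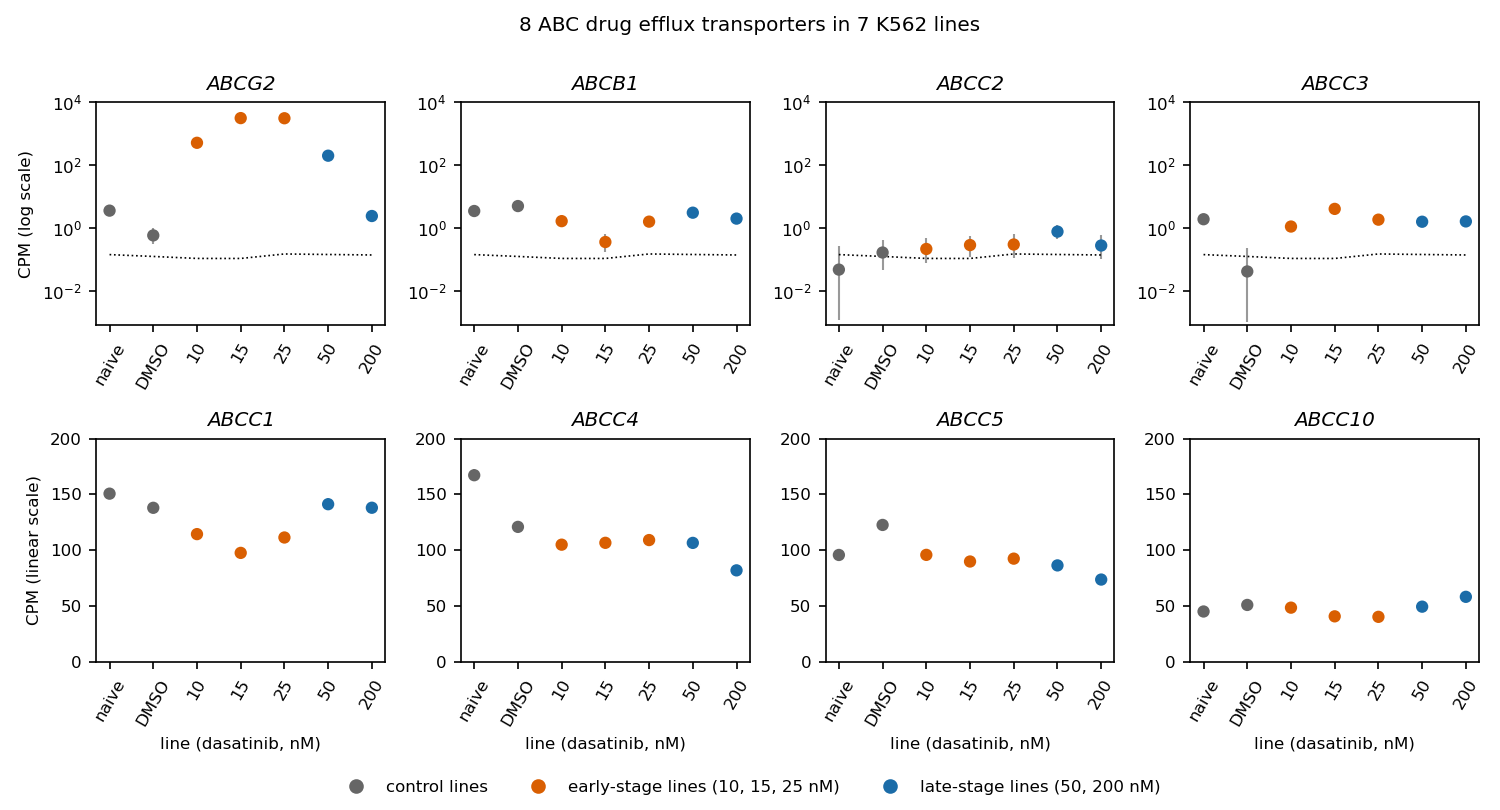
CPM of each member (y axis, log scale in the upper row and linear in the lower) in each of the 7 lines (x axis), with 95% Poisson intervals of the count as bars and, in the upper row, the level of 3 counts as a dotted line. ABCG2 spans 0.582 to 3122 CPM, while ABCC1, ABCC4, ABCC5 and ABCC10 stay between 40.4 and 167.

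ABCB1, the P-glycoprotein that exports bulky hydrophobic drugs, was scarce in every line and lowest in the early stage lines, where ABCG2 was highest. Within the late stage group both genes were higher in the 50 nM line than in the 200 nM line. It held 3.47 CPM in drug naive cells, 4.99 in the DMSO line, 1.65 in the 10 nM line, 0.359 in the 15 nM line, 1.60 in the 25 nM line, 3.07 in the 50 nM line and 1.99 in the 200 nM line. These values rest on 10 to 120 counts. All 5 DasR lines lay below both controls, the 15 nM line lowest. The mean was 4.23 ± 1.07 CPM in the controls (SD, n = 2), 1.20 ± 0.731 in the early stage lines (n = 3) and 2.53 ± 0.764 in the late stage lines (n = 2). ABCB1 did not pass the filter of at least 10 CPM in at least 2 libraries. In a second fit, with the minimum lowered to 1 CPM and 14899 genes kept, its early stage log2 fold change was −1.83 (SE 0.56, edgeR adjusted p = 0.0352). In the same fit 40.9% of genes had an adjusted p under 0.05 for that comparison. The late stage value was −0.73 (edgeR adjusted p = 0.402). RUNDC3B, which overlaps it, held 2 to 31 counts in the 7 lines, and ABCB4, a bile phospholipid transporter close to ABCB1 in sequence, held 0 to 17. Reads shared by ABCB1 and ABCB4 are uncertain.

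The genes beside ABCB1 on its lower-coordinate side were also low in the DasR lines. CROT, a peroxisomal acyltransferase 103 kb away, held 4.43 and 5.95 CPM in the controls and 0.0719, 0.682, 0.150, 0.0960 and 0.0926 in the lines from 10 to 200 nM. TP53TG1, a long noncoding RNA, held 4.52 and 3.62 CPM in the controls and 0.144, 0.575, 0.299, 0.192 and 0.0463 in the same lines. CROT fell in the early stage lines by 4.05 on the log2 scale (SE 0.66, edgeR adjusted p = 0.00338, fit at 1 CPM) and TP53TG1 fell by 3.57 (SE 0.53, edgeR adjusted p = 0.00253), in a fit where 14.3% of all genes passed the threshold. ABCB4 itself had 17 and 12 counts in the controls and at most 1 in any DasR line. All 6 nearest genes on that side (ABCB4, CROT, TP53TG1, TMEM243, DMTF1 and ELAPOR2) lay below both controls in all 5 DasR lines. On the other side 1 of 6 did so (SLC25A40), 2 lay above and 3 overlapped. Of these genes, ABCB4, ADAM22 and STEAP4 were under the 1 CPM minimum. Among those kept, 5 of 5 on the lower side lay below the controls, and on the other side 1 of 4 lay below, 2 above and 1 overlapped. Over all 14899 genes at that minimum, 23.7% lay below both controls in all 5 DasR lines and 22.0% above. SRI, the kept gene that overlapped, held 43.6 and 50.3 CPM in the controls and 44.4 in the 200 nM line. The lines from 10 to 50 nM held 30.4, 24.1, 25.8 and 35.1 CPM of SRI, below both controls. The early stage log2 fold change of SRI was −0.82 (SE 0.15, edgeR adjusted p = 0.00544, fit at 1 CPM). The 3 nearest genes on each side were set by rule, and the next 3 were added after the values of those were seen. ELAPOR2, 443 kb away, held 132 and 125 CPM in the controls, 23.2, 27.7 and 31.2 in the early stage lines and 61.3 and 66.3 in the late stage lines. Its early stage log2 fold change of −2.24 (SE 0.13, edgeR adjusted p = 0.000110) held its side of the threshold without each line in turn, whereas those of CROT, TP53TG1, DMTF1 and SLC25A40 did not. Whether these values share a cause was not tested.

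**Figure D2:**
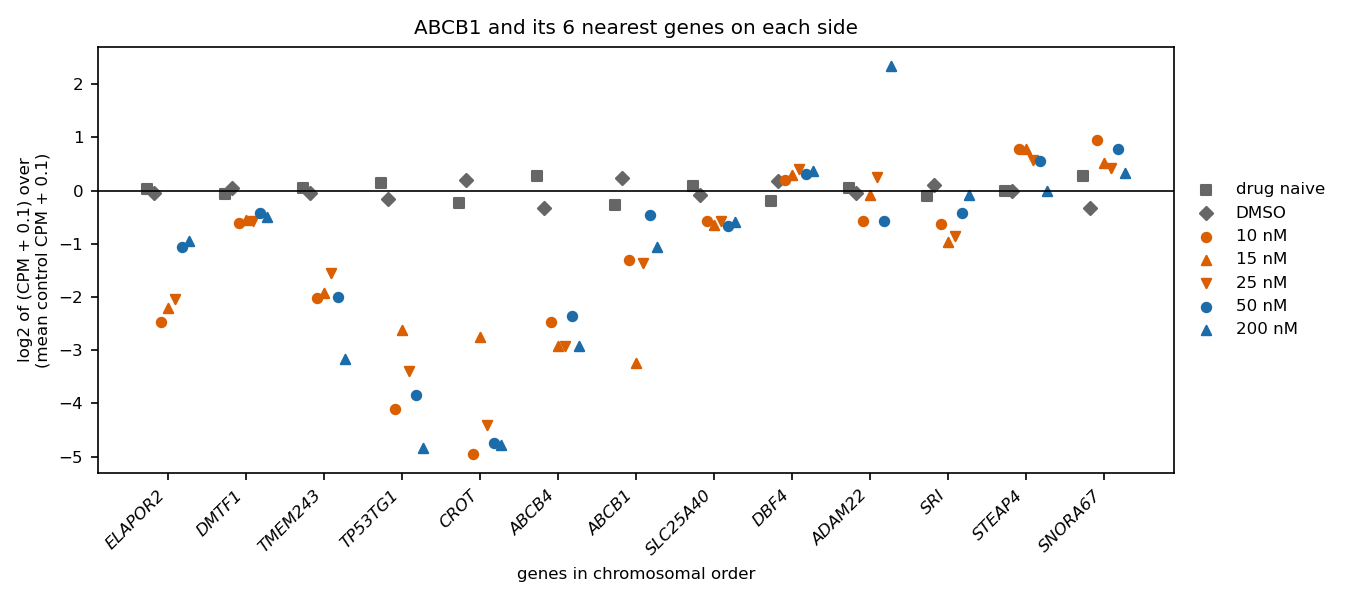
Log2 ratio of CPM + 0.1 to the mean control CPM + 0.1 (y axis) for ABCB1 and the 6 nearest genes on each side in chromosomal order (x axis), with 1 point per line. Every DasR point from ELAPOR2 to ABCB1 lies below the control points of the same gene, while on the other side only SLC25A40 does so.

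ABCC1, the multidrug resistance protein that exports glutathione conjugates and anthracyclines, was among the abundant members. It held 151 CPM in drug naive cells, 138 in the DMSO line, 115, 97.7 and 111 in the 10, 15 and 25 nM lines, and 141 and 138 in the 50 and 200 nM lines. The early stage lines lay below both controls and both late stage lines. The late stage lines lay between the controls. The mean was 144 ± 8.97 CPM in the controls (SD, n = 2), 108 ± 8.96 in the early stage lines (n = 3) and 140 ± 2.25 in the late stage lines (n = 2). The early stage log2 fold change was −0.44 (SE 0.10, edgeR adjusted p = 0.0126), which did not reach the threshold in edgeR and did with DESeq2 (adjusted p = 0.00133). The late stage value was −0.07 (edgeR adjusted p = 0.662) and the late against early difference 0.37 (SE 0.10, edgeR adjusted p = 0.0595). Over the 7 lines the log2 CPM of ABCC1 correlated with that of ABCG2 at r = −0.82 and with that of ABCB1 at r = 0.88, as a description of lines that descend from each other.

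ABCC4, which exports cyclic nucleotides, prostaglandins and nucleoside analogs, held 167 CPM in drug naive cells and 121 in the DMSO line. The early stage lines held 105, 107 and 109 CPM, the 50 nM line 107 and the 200 nM line 82.0. All 5 DasR lines lay below both controls, and the controls differed from each other more than the early stage lines did. The early stage log2 fold change was −0.45 (SE 0.17, edgeR adjusted p = 0.0657) and the late stage value −0.64 (SE 0.19, edgeR adjusted p = 0.0383). Leaving out 1 line moved the early stage value of ABCC4 between −0.69 without the DMSO line and −0.16 without the drug naive line (edgeR adjusted p = 0.0208 and 0.473), and the late stage value between −0.88 and −0.35 without the same lines (edgeR adjusted p = 0.0185 and 0.200).

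ABCC5, which exports cyclic GMP and nucleotide drug metabolites, held 95.8 CPM in drug naive cells and 123 in the DMSO line. The early stage lines held 95.9, 90.0 and 92.5 CPM, and the 50 and 200 nM lines 86.5 and 73.8. The late stage lines lay below both controls and below all early stage lines, whereas the 10 nM line lay between the controls. The early stage log2 fold change was −0.25 (SE 0.12, edgeR adjusted p = 0.125) and the late stage value −0.47 (SE 0.13, edgeR adjusted p = 0.0317). With 1 line left out, the values of ABCC5 ran from −0.39 to −0.09 in early stage (edgeR adjusted p from 0.0666 to 0.607) and from −0.61 to −0.31 in late stage (from 0.0308 to 0.142).

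ABCC10, a broad exporter of natural-product drugs such as taxanes, varied least among the abundant members. It held 45.2 CPM in drug naive cells, 51.0 in the DMSO line, 48.6, 40.8 and 40.4 in the early stage lines and 49.5 and 58.3 in the late stage lines. Its early stage and late stage log2 fold changes were −0.17 (edgeR adjusted p = 0.297) and 0.14 (edgeR adjusted p = 0.438), and each DasR group overlapped the controls.

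ABCC2 and ABCC3, pumps of organic anion conjugates best known from liver, kidney and gut, were near the limit of the counts. ABCC2 had 1 and 4 counts in the controls, 6, 8 and 6 in the early stage lines, 16 in the 50 nM line and 6 in the 200 nM line. It reached no more than 0.768 CPM and entered no fit at 10 or 1 CPM, and its 95% counting interval was 0.0453 to 0.426 CPM in the DMSO line and 0.439 to 1.25 CPM in the 50 nM line. ABCC3 held 1.90 CPM in drug naive cells and 1 count in the DMSO line (0.0416 CPM). The DasR lines held 1.11, 4.06, 1.84, 1.58 and 1.62 CPM from 10 to 200 nM, so that each DasR group overlapped the controls. Its early stage log2 fold change of 1.27 (SE 1.02, edgeR adjusted p = 0.352, fit at 1 CPM) was 0.26 without the DMSO line and 5.66 without the drug naive line.

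Across the members, 5 of 8 passed the filter of 10 CPM. By edgeR at the threshold of 0.005, 0 of these 5 were called in early stage against control, where 18.0% of 10452 genes were called (828 higher and 1053 lower). In late stage against control 0 of 5 were called, against 7.98% of all genes. In all DasR lines against control, the grouping by the treatment label, 0 of 5 were called, against 8.08%. In late against early stage 0 of 5 were called, and 0% of all genes.

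At an unadjusted p under 0.05 edgeR had 3 of 5 members in each of these comparisons, beside 54.2% of all genes in early stage, 45.9% in late stage, 44.2% in all DasR lines and 33.0% in late against early stage. DESeq2 at 0.005 called ABCG2 and ABCC1 in early stage (33.9% of all genes), 0 members in late stage (23.9%), 1 in all DasR lines (25.4%) and 0 in late against early stage (10.9%). With limma-voom 0 members were called in each comparison, beside 18.4%, 7.54%, 8.09% and 0% of all genes in the same order. At an adjusted p under 0.05, edgeR called ABCG2 and ABCC1 in early stage lines (46.5% of all genes), ABCC4 and ABCC5 in late stage lines (33.9%), ABCC4 in all DasR lines (32.4%) and no member between late and early stage (12.7%). With 5 members beside shares of this size, no count here is read as a result about the members.

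**Figure D3:**
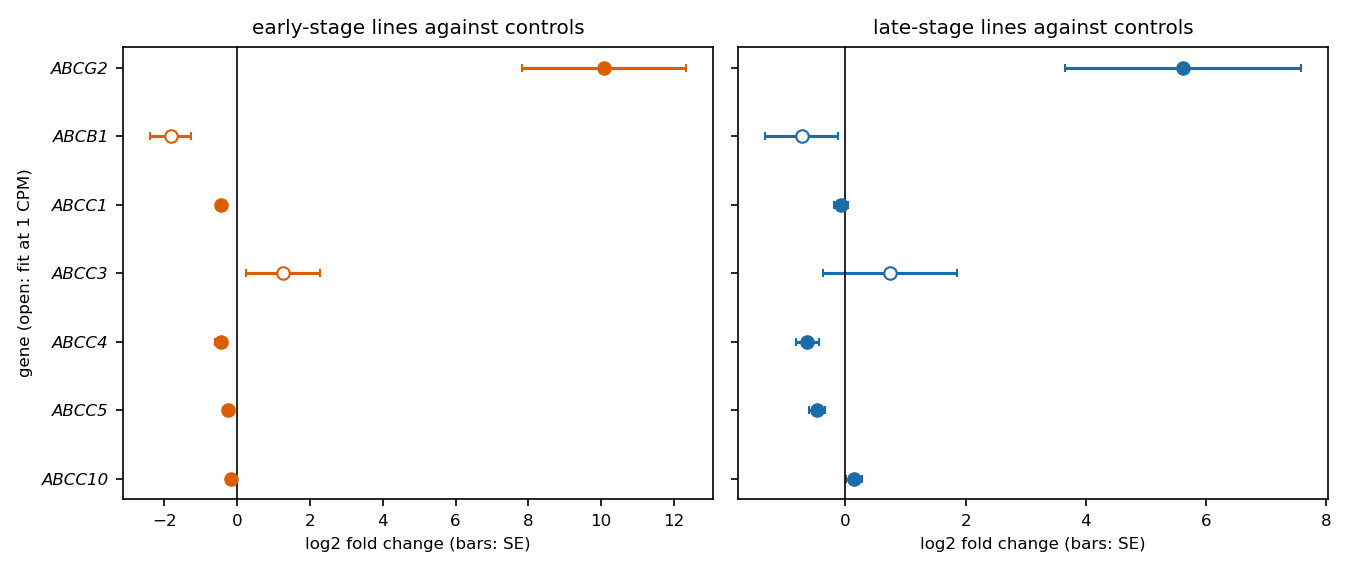
Log2 fold change of the members (x axis, bars show SE) in early stage (left) and late stage lines (right) against the controls, from edgeR, with open points for ABCB1 and ABCC3, which were fitted at 1 CPM. ABCC2 was not fitted, the axes of the panels differ in range, and ABCG2 stands at 10.08 and 5.61 while ABCC1, ABCC4, ABCC5 and ABCC10 lie within 0.64 of 0.

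Separation of the raw values was also common among all genes. Of the 7 members kept at the 1 CPM minimum, 1 lay above the controls in every early stage line (ABCG2) and 3 below (ABCB1, ABCC1 and ABCC4), against 33.8% and 33.2% of all 14899 genes. For the late stage lines the counts were 0 above and 3 below (ABCB1, ABCC4 and ABCC5), against 30.6% and 35.1%. Over all 5 DasR lines they were 0 above and 2 below (ABCB1 and ABCC4), against 22.0% and 23.7%. Between the late and the early stage lines 3 members were higher (ABCB1, ABCC1 and ABCC10) and 2 lower (ABCG2 and ABCC5), against 23.3% and 27.9%. The median log2 fold change of the 5 fitted members was −0.25 in early stage and −0.07 in late stage lines, beside 0.00 for all genes in both.

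Per length of transcript, ABCG2 outweighed the rest of the family together in the 15 and 25 nM lines and not in the 10 nM line. The 48 ABC genes were compared as CPM per kilobase of the canonical transcript (RPKM). ABCG2 made up 0.185% of the summed RPKM in drug naive cells, 0.0276% in the DMSO line, 19.1% in the 10 nM line, 58.2% in the 15 nM line, 58.5% in the 25 nM line, 9.09% in the 50 nM line and 0.117% in the 200 nM line. It held rank 1 of the 48 in each early stage line, rank 4 in the 50 nM line, and rank 25 or 30 in the other lines. Its RPKM of 742 in the 15 nM line compared with 82.2 for ABCB10, a mitochondrial transporter of erythroid cells and the next gene of the family in that line. Without ABCG2 the summed RPKM of the family ran from 458 to 534 over the 7 lines. Among the members alone ABCG2 held 1.07% and 0.186% of the RPKM in the controls and 92.8% and 92.4% in the 15 and 25 nM lines. In the controls the order by RPKM began with ABCC4, ABCC1 and ABCC5 in drug naive cells (28.6, 23.2 and 16.6) and with ABCC1, ABCC5 and ABCC4 in the DMSO line (21.2, 21.2 and 20.7), so the order of these 3 did not hold between the control lines. ABCC10 followed at 8.96 and 10.1, and ABCG2, ABCB1, ABCC3 and ABCC2 were each under 1 RPKM there. The summed CPM of the members other than ABCG2 was 464 and 438 in the controls and 340 to 389 in the DasR lines.

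**Figure D4:**
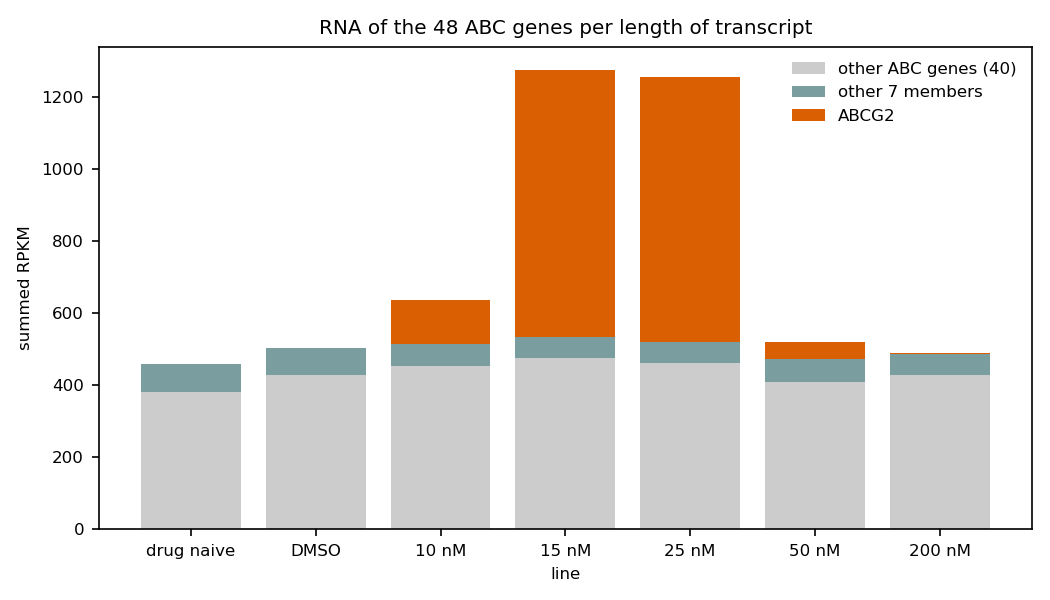
Summed RPKM of the 48 ABC genes (y axis) in each line (x axis), divided into ABCG2, the other 7 members and the other 40 genes. The part of ABCG2 reaches 742 RPKM in the 15 nM line, and the rest of the family stays between 458 and 534.

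The genes whose log2 CPM was most like that of ABCG2 over the 7 lines were BCOR (r = 0.998), CNOT4 (0.994), PKD2 (0.991), PURB (0.990) and MERTK (0.990). Their ranges differed widely, from 250 to 403 CPM for BCOR, a transcriptional corepressor, to 4.04 to 1717 CPM for PKD2, a cation channel whose gene lies 12.4 kb from ABCG2. PPM1K, a mitochondrial phosphatase gene 26.0 kb away on the other side, held 25.9 and 24.4 CPM in the controls and 776, 3694 and 3684 in the early stage lines. The genes most like ABCC1 were RAB13, SAMD4A, ATP2B4, ARFIP1 and SUSD1 (r from 0.989 to 0.996). With Spearman's correlation in place of Pearson's, 2 of the 5 genes of ABCG2 and 0 of those of ABCC1 stayed among the 5.

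The summed level of erythroid markers, genes of the cells that K562 resembles, was higher in the early stage lines, where ABCG2 was also high. All 13 markers on the list were at 1 CPM or more in each line, and their summed CPM was 4220 and 3620 in the controls, 10256, 11628 and 8784 in the early stage lines, and 6108 and 4829 in the 50 and 200 nM lines. The most abundant was HBG2 or HBZ, both hemoglobin chains. In early stage lines 3 of the 13 rose by edgeR at 0.005 and 0 fell, beside 7.92% of all genes called higher and 10.1% lower. Their early stage log2 values were above 0 for 12 and below 0 for 1, with a median of 1.13, and 10 had an adjusted p under 0.05, beside 46.5% of all genes. They ran from −0.18 for GATA1 (edgeR adjusted p = 0.283), a defining erythroid factor, to 5.03 for HBZ (edgeR adjusted p = 0.00604). Both the sum and ABCG2 were highest in the 15 nM line and lowest in the DMSO line, but their orders differed between the 10 and 25 nM lines and between the drug naive and 200 nM lines. The part of these cells' markers in the levels of ABCG2 was not tested. Of other cell types, the summed CPM of 4 T cell markers was 4.81 to 33.1, of 7 granulocyte and monocyte markers 27.2 to 105, of 4 epithelial markers 50.9 to 75.4, of 5 fibroblast markers 5.05 to 19.6 and of 4 hepatocyte markers 0 to 6.15. The most abundant were CD3D, LYZ, EPCAM, COL1A1 or COL1A2, and ALB. At the 1 CPM minimum 3 T cell markers were fitted, and their early stage log2 values were −1.34 for CD3D, 2.70 for CD3E and 1.55 for CD3G (edgeR adjusted p = 0.0652, 0.0326 and 0.126). Of 2 fitted granulocyte and monocyte markers AZU1 fell by 2.94 (edgeR adjusted p = 0.000668) and LYZ had a log2 value of 0.24 (edgeR adjusted p = 0.743). Of 3 fitted fibroblast markers COL1A2 fell by 5.26 in early stage lines (edgeR adjusted p = 0.00470). COL1A1 and DCN had early stage log2 values of 1.04 and 1.73 (edgeR adjusted p = 0.113 and 0.0296). ALB, the 1 fitted hepatocyte marker, had log2 values of 3.81 in early and 6.42 in late stage lines (edgeR adjusted p = 0.186 and 0.0517). The early stage value of ALB rested on the 25 nM line at 3.04 CPM, with 0.144 in the 10 nM line and 0 in the 15 nM line. The part of these markers in the levels of the members was not tested. In bulk RNA, fewer cells that express a gene and less RNA in each cannot be told apart.

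Carriers that bring drugs into cells moved in both directions. Of 22 listed uptake carriers 9 passed the filter, and in early stage lines 4 rose and 1 fell by edgeR at 0.005, with a median log2 fold change of 0.60. Of all genes tested 7.92% were called higher and 10.1% lower in early stage lines, and 3.42% and 4.56% in late stage lines, which is the background for this list and those that follow. SLC22A4, an organic cation carrier, rose from 4.86 and 5.41 CPM in the controls to 22.5, 21.7 and 18.1 (log2 2.00, SE 0.20, edgeR adjusted p = 0.000542). SLC19A1, the reduced folate carrier, rose from 21.4 and 30.3 CPM to 70.2, 81.1 and 78.4 (log2 1.55, SE 0.15, edgeR adjusted p = 0.000548) and also rose in late stage lines (1.20, edgeR adjusted p = 0.00266). SLC29A1, the nucleoside carrier that admits cytarabine, rose by 0.96 and SLCO4A1, an organic anion carrier, by 1.43 on the log2 scale. SLC31A1, the copper carrier linked to cisplatin entry, fell from 247 and 240 CPM to 96.7, 109 and 96.1 (log2 −1.29, SE 0.11, edgeR adjusted p = 0.000375) and fell by 1.36 in late stage lines (edgeR adjusted p = 0.000938). SLC19A1 and SLC31A1 were the 2 late stage calls on the list, whose late stage median was 0.85. The early stage call of SLCO4A1 and the late stage call of SLC19A1 were lost whichever single line was left out. The early stage calls of SLC22A4 and SLC29A1 each held in 3 of 5 such fits, and that of SLC19A1 in 5 of 5. The call of SLC31A1 held in 4 of 5 such fits in early stage and 2 of 4 in late stage.

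Among the other 40 ABC genes 19 passed the filter, of which 4 rose and 0 fell in the early stage lines (median log2 −0.02) and 1 rose and 1 fell in the late stage lines (median −0.15). ABCB6, a porphyrin transporter, rose from 44.4 and 40.9 CPM to 102, 130 and 98.7 (log2 1.35, SE 0.15, edgeR adjusted p = 0.000808). ABCF1, a translation factor of the family that spans no membrane, rose in early stage (0.70) and late stage lines (0.71, edgeR adjusted p = 0.00240). ABCA5 and ABCA8, lipid transporters, rose by 1.62 and 1.67 in early stage lines, calls that held in 3 and 1 of 5 fits with a line left out. The early stage calls of ABCB6 and ABCF1 held in 3 and 2 of 5 such fits. ABCB10 fell in late stage lines by 0.70 (SE 0.11, edgeR adjusted p = 0.00457), from 276 and 281 CPM to 185 and 163. The late stage calls of ABCF1 and ABCB10 were lost whichever single line was left out. The abundant ABCC9, a subunit of potassium channels, and ABCE1, a ribosome recycling factor, had early stage log2 values of −0.02 and 0.13 (edgeR adjusted p = 0.894 and 0.509).

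**Figure D5:**
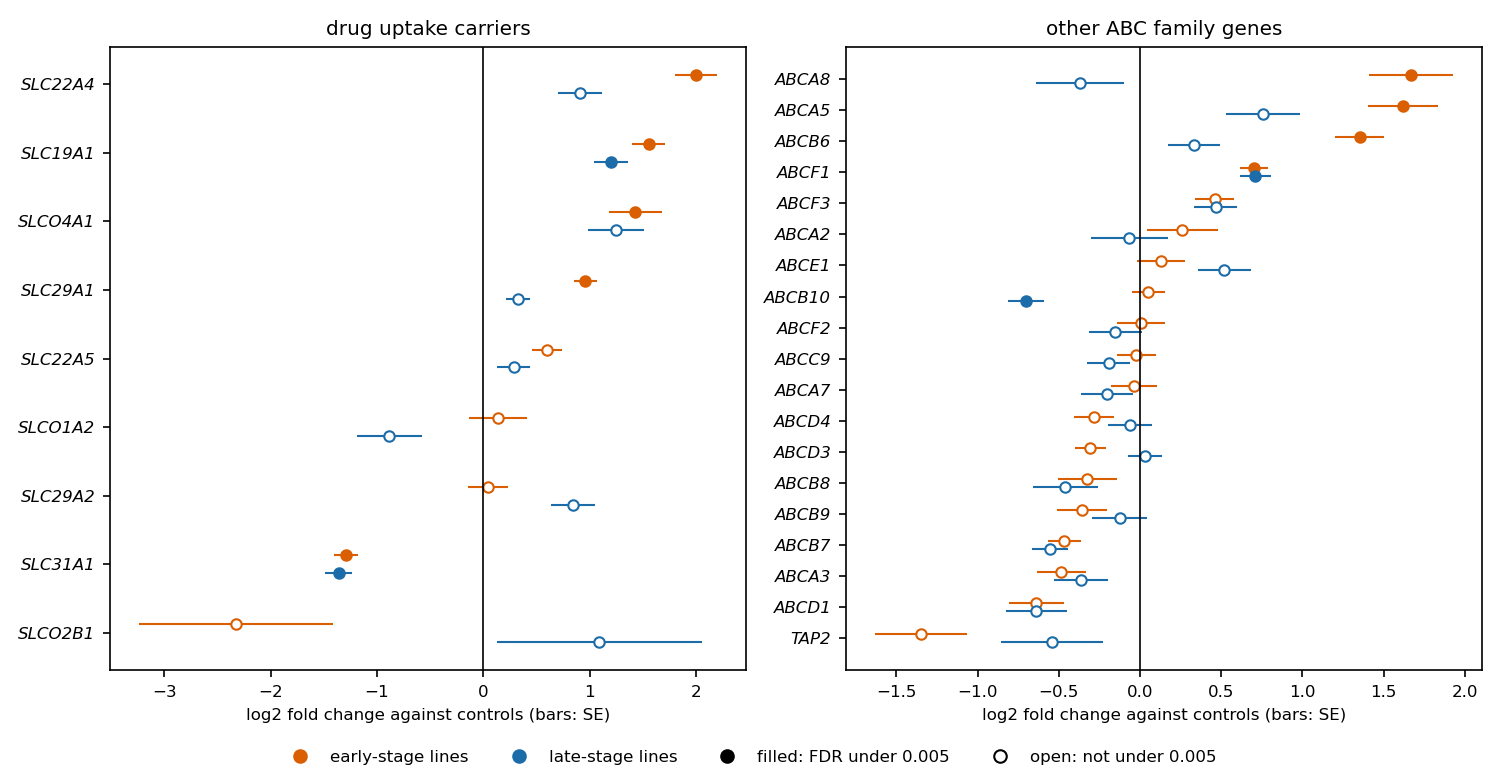
Log2 fold change against the controls (x axis, bars show SE) of 9 uptake carriers (left) and 19 other ABC genes (right) in early and late stage lines, from edgeR, with filled points for an adjusted p under 0.005. SLC22A4, SLC19A1, SLCO4A1 and SLC29A1 rose in early stage lines, SLC31A1 fell in both groups, and 4 ABC genes rose in early stage lines.

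Genes that act on the same drugs or on the pumps themselves were counted in further lists. Of 14 fitted conjugation enzymes, which prepare substrates for the ABCC pumps, 2 rose and 1 fell in early stage lines (median log2 −0.26). GSTM3 rose by 1.49 and GSTK1 by 0.64, and MGST1 fell by 1.29 (edgeR adjusted p = 0.00393, 0.00470 and 0.00310). GSS, a glutathione synthesis enzyme, fell in late stage lines by 0.76, the 1 late stage call (median 0.06). All 4 of these calls were lost whichever single line was left out, that of GSTM3 also with limma-voom, and those of GSTK1 and GSS also with library size scaling or only the groups compared. Of 13 fitted regulators of the members, 2 rose and 3 fell in early stage lines (median 0.04). FOXO1 rose from 2.14 and 2.75 CPM to 12.7, 15.5 and 15.2 (log2 2.55, SE 0.21, edgeR adjusted p = 0.000266) and by 2.00 in late stage lines, and RXRA rose by 0.89. NFE2L2, the oxidative stress factor, fell by 0.86, the kinase PIM1 by 1.44 and the receptor partner ARNT by 0.49 in early stage lines. FOXO1 was the 1 late stage call among regulators (median −0.27). The late stage call of FOXO1 held in 1 of 4 fits with a line left out and was lost with limma-voom and with only the groups compared. The calls of RXRA, PIM1 and ARNT were lost whichever single line was left out, and that of NFE2L2 held in 3 of 5 such fits.

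Of 12 fitted trafficking genes, which place pumps at the membrane, 1 rose and 4 fell in early stage lines (median log2 −0.36), and 0 rose and 1 fell in late stage lines (median −0.15). SLC9A3R1, a membrane scaffold, rose by 1.19 in early stage lines, a call that held in 2 of 5 fits with a line left out. HSPA5, the chaperone of the endoplasmic reticulum, fell from 1793 and 1512 CPM to 403, 406 and 448 CPM (SE of the log2 change 0.11, edgeR adjusted p = 7.76e-05), and fell by 1.64 on the log2 scale in late stage lines. MSN, which ties membrane proteins to actin, fell by 1.05, RAB5A by 0.50 and PIM1, which is also on this list, by 1.44. The calls of MSN, RAB5A and PIM1 were lost whichever single line was left out. The medians of all genes tested were 0.00 in both comparisons.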

How the data were processed

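RNA was extracted from 7 K562 lines, depleted of ribosomal RNA (the molecule label reads polyA), made into libraries with a directional kit and sequenced as paired 75-base reads. Alignment by the authors used STAR and hg19, featureCounts gave counts per gene, and the deposited table holds these counts without normalization. The deposited comparison tables give symbols and a gene length in bases per gene (unit other, not used for values). Their remaining columns, the authors' fold changes, log CPM, p-values and FDR, were not used. The number of per-sample columns not used was 0. Symbols were matched for 23738 of 25702 genes.

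Members were matched by symbol and gene ID. Members and gene lists were chosen with earlier results of these data known. Counts were scaled by TMM and tested by edgeR 4.0.16 (glmQLFit, glmQLFTest, R 4.3.3) over all 7 libraries and 3 groups, on 10452 genes that reached 10 CPM in 2 or more libraries, at an FDR of 0.005. The pooled DasR comparison was fitted with 2 groups (common dispersion 0.0576, against 0.0260 with 3 groups). A fit of 14899 genes at 1 CPM served ABCB1, ABCC3 and the genes beside ABCB1. CPM used total counts, RPKM the canonical transcript length of GENCODE 44 on GRCh37, and correlations log2 CPM with a prior count of 2. A count of 3 equals 0.108 to 0.150 CPM. No libraries were merged. Libraries of a group differed beyond sampling noise (chi-square per degree of freedom 15.5 to 48.3), but they came from separate lines, so a comparison with counting error alone decides nothing. On simulated data for early stage against control, edgeR recovered 200 of 200 genes changed by 2 on the log2 scale among 10452 and called 2 unchanged genes. The simulation gave every gene the same spread and all lines of a group the same mean. Real lines of a group differed in dose and genes differed in spread, so this recovery does not give the power in these data. Alternatives were DESeq2 1.42.0, limma-voom (limma 3.58.1), other scalings and filters, an FDR of 0.05, only the groups compared and each line left out.

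Genes named beside the members were, per list, up to 4 with the smallest p past the threshold in each direction in early and in late stage lines, the 4 most abundant ABC genes and carriers, the 5 genes most like a member and the nearest genes on each side. Some genes of the lists are not reported here.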

Additional observations from a re-analysis of the deposited data

Results flagged for a closer look

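There were 5 values that stood apart among the 5 DasR lines by Dixon's gap test, which was run at both ends of the range for 53 genes named here, and chance flags about 1 in 20 groups. ABCC2 was highest in the 50 nM line at 0.768 CPM (16 counts), with the other DasR lines at 0.216 to 0.299. ABCC3 was highest in the 15 nM line at 4.06 CPM, with the others at 1.11 to 1.84. ABCC4 was lowest in the 200 nM line at 82.0 CPM, with the others at 105 to 109. PIM1, a kinase known to act on ABCG2, was highest in the 200 nM line at 826 CPM, with the others at 367 to 466. CROT, beside ABCB1, was highest in the 15 nM line at 0.682 CPM, with the others at 0.0719 to 0.150, and ABCB1 was lowest in that line.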

How the results depend on the processing

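Of 356 alternatives for the members' log2 fold changes, 339 kept their direction and side of the threshold, 5 passed 0.005 in another fit (ABCG2 in early stage with DESeq2, only the groups compared or no filter, ABCC1 in early stage and ABCG2 in all DasR lines with DESeq2), 6 passed only because the threshold was read at 0.05, and 6 reversed: ABCC1 in late stage without the drug naive line (range without each line −0.16 to 0.025), ABCC3 in late stage without the DMSO line (−0.26 to 5.14) and in late against early stage without the 15 nM line (−0.86 to 0.15), and ABCC10 in all DasR lines without the DMSO, 15 nM or 25 nM line (−0.11 to 0.026). For ABCB1 and ABCC3 these were run on the fit at 1 CPM, a choice made after seeing the data. Leaving out each line moved the early stage log2 value of ABCG2 between 9.24 and 11.91 (adjusted p 0.0115 to 0.0683). DESeq2 called 3548 genes in early stage, 2503 in late stage, 1135 in late against early and 2655 in all DasR lines, and an FDR of 0.05 gave 4865, 3542, 1328 and 3386. Without a filter late stage gave 1287 and late against early 295, and with only the groups compared late stage gave 257. Leaving out each line gave 208 to 1111, 33 to 281, 0 to 198 and 28 to 1376 calls, lowest without the drug naive line in each comparison with the controls. The 198 arose without the 50 nM line and the 1376 without the 200 nM line. Members called in early stage were 2 with DESeq2, 1 with only the groups compared, 1 without a filter and 2 at FDR 0.05, in late stage 2 at FDR 0.05, and in all DasR lines 1 with DESeq2 and 1 at FDR 0.05. The share of higher calls in all DasR lines was 51.7% with DESeq2 and 40.8% in edgeR.

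Of 28 calls of named genes on the other lists, 4 held without each line (SLC19A1, FOXO1 and HSPA5 in early and HSPA5 in late stage), 13 were lost in every such fit (early stage SLCO4A1, GSTM3, GSTK1, MGST1, RXRA, PIM1, ARNT, RAB5A and MSN, late stage ABCF1, ABCB10, SLC19A1 and GSS) and 17 held under all other alternatives. With 1 line left out, the direction reversed for 5 values that were not calls: in early stage ABCB10 (range −0.012 to 0.098), ABCC9 (−0.12 to 0.081), ABCE1 (−0.047 to 0.33) and SLC29A2 (−0.10 to 0.21), and in late stage MSN (−0.57 to 0.13). TMM scaling moved 1 of 56 member CPM values beyond its counting interval (ABCG2 in the 15 nM line, 3097). No paired analysis was possible because each line had 1 library and the lines of different groups were not matched. Counts of 1 to 16 for ABCC2 and of 10 to 120 for ABCB1 limit both genes. The cause of these shifts was not tested.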
